A study of Rattus norvegicus with 69 samples.

Results

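Whole blood taken on day 21 from Sprague-Dawley rats that had breathed laser printer-emitted particles (PEPs) was compared with blood taken on the same day from rats that had breathed filtered air. The comparison holds 12 of the 69 arrays of the study, chosen by their titles alone: 6 from PEPs-exposed rats and 6 from air-exposed rats, all without an implanted telemetry transmitter. All rats were adult males, 9 weeks old when purchased, held 1 animal to a chamber for 5 h a day on 21 consecutive days, so each array is a separate animal. The PEPs group received the particles together with the gases of 1 printer model (B1) from an exposure generation system, and the control group received HEPA-filtered air in the same kind of chamber. The other arrays cover days 1, 5, 9, 13 and 17 (5 PEPs and 5 air rats each, except 4 air rats on day 17) and a second day 21 pair of 4 PEPs and 4 air rats that carried transmitters. According to the labels the exposures were repeated in separate runs, with no mark of the run on each rat, so run and exposure cannot be told apart here.

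Blood RNA is a mixture of reticulocyte, platelet and white cell RNA. Inhaled combustion-type particles are known to meet lung macrophages and epithelium first, and blood can carry later signs of that encounter through cytokines, lipid mediators and the release of cells from marrow. Nrf2 is the transcription factor that switches on antioxidant and thiol-regenerating enzymes, and Hmox1 breaks down haem. The eicosanoid enzymes make prostaglandins and leukotrienes from arachidonic acid, and granzymes are the proteases of killer lymphocytes. In bulk blood, fewer cells of a type and less RNA per cell cannot be told apart.

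The values were log2 RMA values, a normalised hybridisation signal in which a difference of 1 is a doubling of signal, and 34176 probe sets were tested. Blood markers were bright in both arms. Haemoglobin alpha (Hba-a1, left out of the test because it hardly varied) had values between 12.1 and 12.5 in PEPs rats and between 12.1 and 12.3 in air rats. The pan-leukocyte gene Ptprc had values of 10.6 to 10.8 in PEPs rats and 10.4 to 10.97 in air rats. The lung surfactant gene Sftpc stayed at 1.25 to 2.67 in PEPs rats and 1.59 to 2.19 in air rats. The lower quartile of all values on an array lay at 1.41 to 1.49 with PEPs and 1.41 to 1.47 with air. Napsa, also on the lung epithelium list, was bright in both arms, at 7.893 to 8.305 with PEPs and 7.814 to 8.437 with air. Pairwise correlations among the 12 arrays ran from 0.955 to 0.970. The median was 0.960 within the PEPs arm, 0.963 within the air arm and 0.963 between the arms. The array medians were slightly higher with PEPs (2.52 to 2.57) than with air (2.51 to 2.53; exact 2-sided permutation test p = 0.0152, 0.0455 after adjustment over 3 array measures), and the part of this shift in the values below was not tested.

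No probe set passed the test for a PEPs difference on day 21 at an adjusted p under 0.05 (limma with array weights, 0% of 34176, smallest adjusted p = 0.842). At an unadjusted p under 0.05 there were 1695 probe sets, or 4.96%, of which 837 were higher and 858 lower with PEPs. Among the 13586 genes with a single symbol, 573 or 4.22% reached that level, 261 (1.92%) higher and 312 (2.3%) lower. Without regard to p, 6566 genes (48.3%) were higher and 7020 (51.7%) lower with PEPs. A fit without array weights gave 815 probe sets at that level and a fit on the 12 arrays alone gave 1551, both again with none passing. The study's own criterion was a 1.5-fold difference whatever its p, with un-annotated genes left out. Over all probe sets tested here, 1143 (3.34%) differed by that size, 593 higher and 550 lower. Of these, 1077 carried no single gene symbol, so this count is not of the set the study used. A mean log2 value under 4 was found in 942 (82.4%), against 67.9% of all probe sets tested. Of named genes 65 (0.478%) were at 1.5-fold, 28 higher (0.206%) and 37 lower (0.272%), and 49 of these also had an unadjusted p under 0.05. They included 7 olfactory receptors and 1 vomeronasal receptor.

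The precision of 6 against 6 rats bounds what could have been missed. The median SE of a difference was 0.153 on the log2 scale, which gives a median 95% half-width of 0.307. For 11340 genes (83.5%) the whole interval lay within 1.5-fold in either direction, and for 13417 (98.8%) within 2-fold. For the other genes the interval reached past those sizes, so a difference of that size was neither shown to be absent nor, after adjustment, shown to be present. Of the 5461 genes with a mean of at least 4, 4744 (86.9%) had the whole interval within 1.5-fold.

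**Figure D1:**
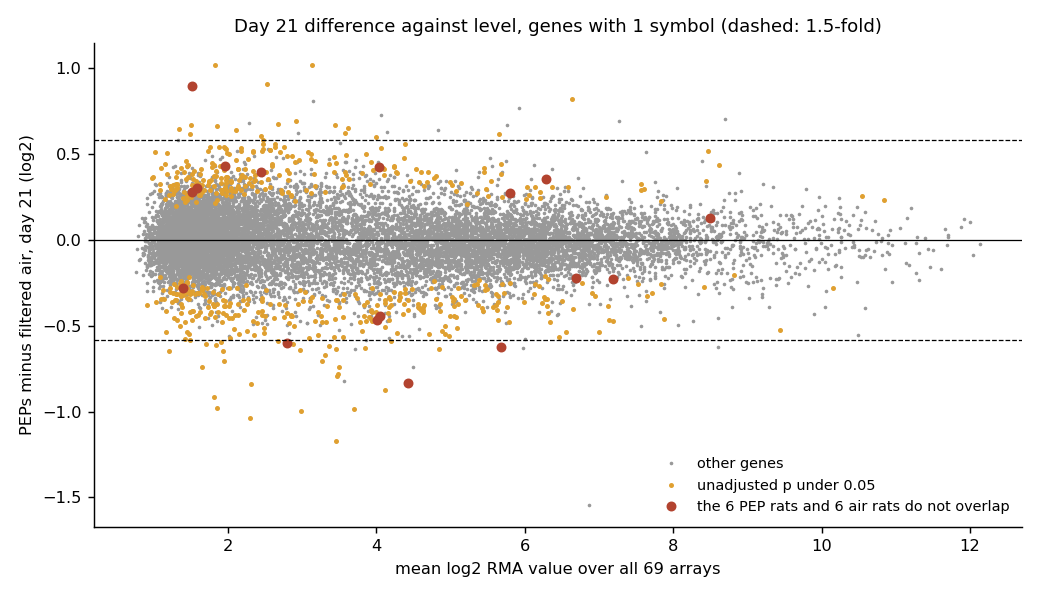
Day 21 difference of each of 13586 genes (y axis, log2, PEPs minus filtered air) against its mean log2 RMA value over all 69 arrays (x axis). Dashed lines mark 1.5-fold, which 65 genes reached, and red points are the 17 genes whose PEPs and air rats did not overlap.

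The genes with the smallest p among those at least 1.5-fold lower with PEPs were led by Pglyrp4, a peptidoglycan recognition protein that binds bacterial cell wall. Its level ran from 2.82 to 3.73 in the 6 PEPs rats (median 3.27), against 3.67 to 5.34 in the 6 air rats (median 4.22). The arms overlapped only between the highest PEPs rat and the lowest air rat. The difference was -0.98 ± 0.24 (SE), with a 95% interval from -1.47 to -0.50 (limma, unadjusted p = 0.000164, adjusted p = 0.842). Alox12e, an epidermal-type 12-lipoxygenase, had values of 1.55 to 2.89 with PEPs (median 2.46), against 2.68 to 3.55 with air (median 3.38), a difference of -0.84 ± 0.25. Ptges3l1, named for its likeness to a prostaglandin E synthase, lay between 2.21 and 3.58 with PEPs (median 2.43), against 2.93 and 3.81 with air (median 3.62). Here 5 of the 6 PEPs rats were below every air rat, and replicate 6 of the PEPs arm alone reached into the air range. Tfec, a transcription factor of the MiT family expressed in macrophages, had no overlap, with 3.53 to 4.28 in PEPs rats and 4.42 to 5.62 in air rats. Sft2d3, which encodes a vesicle transport protein, likewise did not overlap, at 2.18 to 2.88 with PEPs and 2.90 to 3.37 with air. The remaining genes of this group were Pter, Lrrc61, Akr1b8, Npl and Rpa3l1. Their differences were between -1.17 (Rpa3l1) and -0.65 (Lrrc61), and none passed. Pglyrp4, Alox12e, Ptges3l1, Lrrc61 and Npl are among the genes the study had named from these same samples.

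On the other side, Hpca, a neuronal calcium sensor, ran from 1.98 to 4.14 in PEPs rats (median 3.19), against 1.62 to 2.503 in air rats (median 2.28). The difference was 0.91 ± 0.24, with an interval from 0.42 to 1.40 (limma, unadjusted p = 0.000434, adjusted p = 0.842). The lowest PEPs rats, replicate 3 at 1.98 and replicate 1 at 2.43, were inside the air range, and the other 4 were above it. Rimkla, an enzyme that joins N-acetylaspartate to glutamate, lay between 2.99 and 4.03 with PEPs and between 2.40 and 3.16 with air, a difference of 0.69 ± 0.19. The study had named Rimkla from these same samples. Zfp53, a zinc finger gene, had 1 PEPs rat at 4.24 while the PEPs median was 2.33, against 1.47 to 2.23 with a median of 1.52 in air rats. Its difference was 1.02 with that rat, replicate 5, and 0.65 without it. The small GTPase gene Rab4a, which acts in endosome recycling, ran from 3.63 to 4.47 with PEPs and from 3.17 to 3.94 with air. The other members were Thap4, Serpina3j, Hiat1, Tma7l1, Riox2 and Ptmal4, with differences between 0.60 (Thap4) and 1.02 (Hiat1). The receptor gene Or2v2b would have ranked in this group but was skipped by rule. Among probe sets with no symbol, 17605717 lay at 3.55 to 5.24 with PEPs and 2.15 to 3.64 with air, and 17608281 at 2.81 to 3.89 with PEPs and 1.19 to 2.44 with air. The set 17774906 lay at 1.87 to 2.70 with PEPs and 2.72 to 3.22 with air, and 17764734 at 1.77 to 2.26 with PEPs and 2.18 to 3.32 with air, so the third set differed by -0.66 and the fourth by -0.72 (adjusted p = 0.842 in limma for each).

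**Figure D2:**
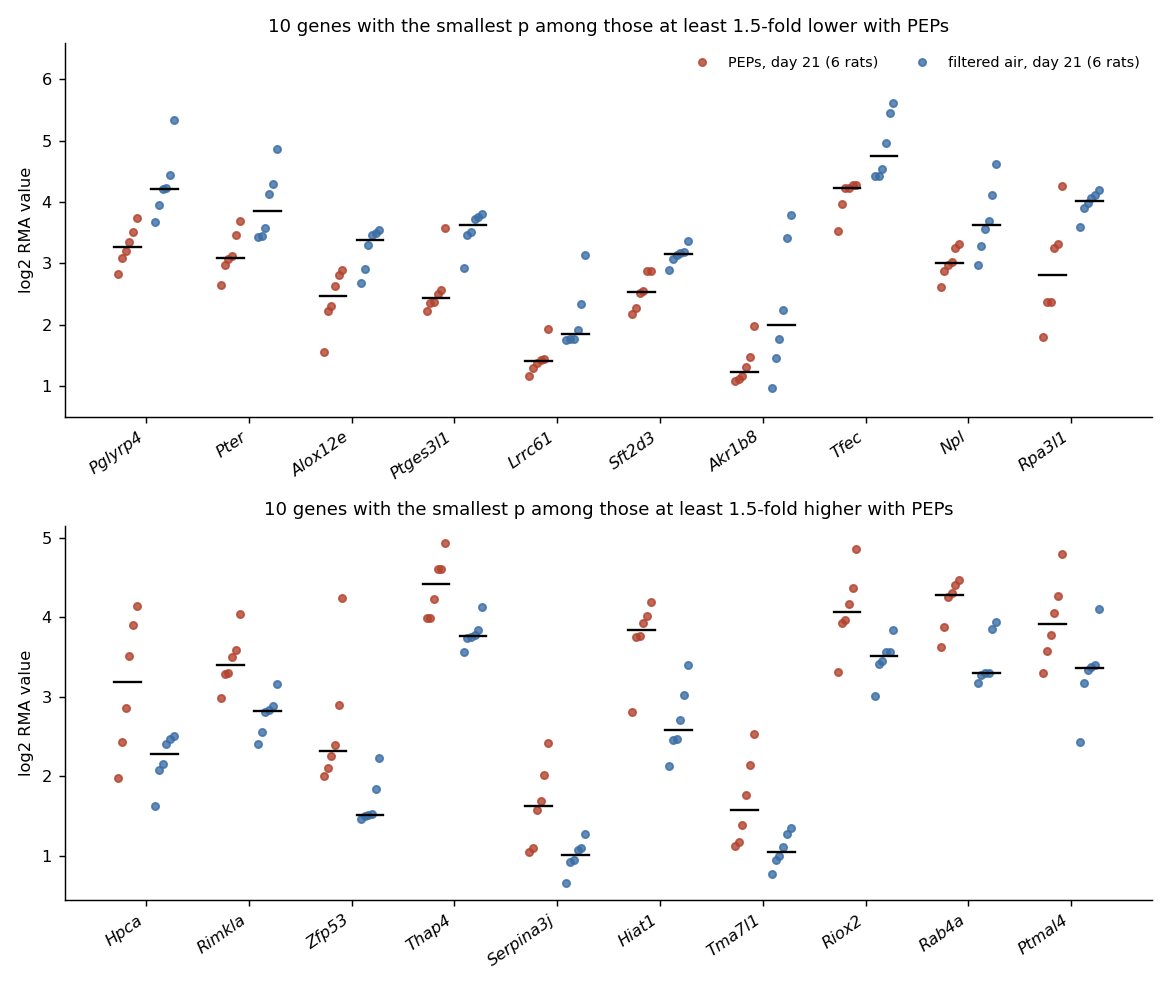
Log2 RMA value of each rat (points) and median of each arm (bars) for the 10 genes at least 1.5-fold lower (top) and higher (bottom) with the smallest p, PEPs in red left of filtered air in blue. Sft2d3 and Tfec have no overlap, while Pglyrp4 overlaps only at its edges, with 3.73 as the highest PEPs rat and 3.67 as the lowest air rat.

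The arms did not overlap for 17 genes (0.125% of 13586), 9 higher (0.0662%) and 8 lower (0.0589%) with PEPs. Several of these differences were small. Cd164, a sialomucin of blood progenitors, was at 8.53 to 8.70 with PEPs and 8.37 to 8.51 with air, a difference of only 0.13 ± 0.08. Il27ra, the receptor chain for interleukin 27, was at 6.56 to 7.11 with PEPs and 5.74 to 6.55 with air. Slc6a6, the taurine transporter, was at 6.61 to 6.84 with PEPs and 6.85 to 7.21 with air. These 3 genes were named after their values were seen. Cd244l1, a receptor of the SLAM family on natural killer cells, was at 5.55 to 5.80 with PEPs and 5.85 to 6.78 with air, a difference of -0.63 ± 0.24. The PEPs rats were tightly clustered for this gene and the air rats were spread.

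The smallest p of any named gene belonged to Lgmn, or legumain, an asparaginyl protease of lysosomes that processes antigens and is abundant in macrophages. Its level was 6.26 to 7.13 in PEPs rats (median 6.65), against 7.06 to 7.47 in air rats (median 7.22). Its difference of -0.54 ± 0.12 (95% interval -0.78 to -0.29, limma unadjusted p = 4.07e-05, adjusted p = 0.842) fell short of 1.5-fold. Of 25 genes of monocytes and macrophages measured, 18 were lower and 7 higher with PEPs, with 3 lower and 1 higher at an unadjusted p under 0.05 and a median of -0.14. Over all genes 2.3% were lower and 1.92% higher at that p, and the median was -0.01. Adgre1 (F4/80) ran from 4.61 to 5.30 with PEPs and from 5.05 to 5.84 with air, and Cebpb, a myeloid transcription factor, from 4.26 to 4.74 with PEPs and from 4.42 to 5.21 with air. In the opposite direction, C1qa, a chain of complement C1q, ran from 2.53 to 4.11 with PEPs and from 2.20 to 3.16 with air, a difference of 0.47 ± 0.20. The mean over the list overlapped between arms, at 5.51 to 5.90 with PEPs and 5.66 to 6.10 with air.

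Eicosanoid synthesis had 24 measured genes, of which 16 were lower and 8 higher, with 5 lower and none higher at an unadjusted p under 0.05 (over all genes 2.3% lower and 1.92% higher) and a median of -0.08. None passed. The study had named Alox12e and Ptges3l1 from these same samples, so these counts are not fully independent of the data. Besides Alox12e and Ptges3l1, the leukotriene B4-forming hydrolase Lta4h lay between 5.18 and 5.90 in PEPs rats (median 5.76), against 5.74 and 6.22 in air rats (median 6.08), a difference of -0.41 ± 0.14. Ptgs1, the constitutive cyclooxygenase that platelets use, differed by 0.12 and Alox12, the platelet lipoxygenase, by 0.07. The inducible cyclooxygenase Ptgs2 differed by -0.04. Receptors for these lipids gave 7 higher and 4 lower of 11, with a median of 0.03. Ltb4r2, a second leukotriene B4 receptor, was at 2.52 to 3.19 with PEPs and 2.08 to 2.74 with air, and the prostacyclin receptor Ptgir at 4.66 to 5.56 with PEPs and 5.24 to 5.89 with air.

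Of 21 Nrf2 targets and thiol redox genes, 16 were lower and 5 higher with PEPs, 3 of them lower at an unadjusted p under 0.05, with a median of -0.18. Over all genes 51.7% were lower, and 2.3% were lower at that p. Hmox1, the haem oxygenase, is also among the genes the study had named from these same samples. It was at 3.14 to 4.04 in PEPs rats (median 3.70), against 3.58 to 5.35 in air rats (median 3.84). The difference was -0.63 ± 0.25. Replicates 4 and 5 of the air arm were at 5.14 and 5.35 and the other 4 air rats at 3.58 to 3.85, inside the range of the PEPs rats, and without air replicate 5 the difference was -0.39. Tkt, the pentose phosphate enzyme transketolase, was at 7.11 to 7.53 with PEPs and 7.45 to 7.79 with air, and the glutathione peroxidase Gpx1 at 9.36 to 10.3 with PEPs and 9.69 to 10.3 with air. With probe sets of mean under 4 left out, the median of the list moved to -0.07. The list mean overlapped between arms, at 6.06 to 6.32 with PEPs and 6.22 to 6.48 with air. In the PEPs arm 4 of 6 rats were below the lowest air rat. Haem degradation genes, which share Hmox1, gave 8 lower and 3 higher of 11 with a median of -0.10. Lrp1, a scavenger receptor of this list, was at 6.06 to 6.59 with PEPs and 6.40 to 7.17 with air.

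The DNA element that Nrf2 binds has the core TGACNNNGC. In the RefSeq promoter windows (250 bases before to 50 after a gene start, assembly GRCr8), it was found on either strand in 6 of 21 windows of the Nrf2 list (28.6%), against 13.1% of the windows of the genes tested and 12.1% of all 33469 windows. Gpx1 and Tkt held no match in their windows, and Hmox1 had no entry. Gclm, the regulatory subunit of the glutathione-forming ligase, holds 1 match on the opposite strand, beginning 172 bases before the start, and is shown with the match in capitals to give the form of the element (chr2:213031885-213032184, plus strand). A match is a description of letters only.
Gclm: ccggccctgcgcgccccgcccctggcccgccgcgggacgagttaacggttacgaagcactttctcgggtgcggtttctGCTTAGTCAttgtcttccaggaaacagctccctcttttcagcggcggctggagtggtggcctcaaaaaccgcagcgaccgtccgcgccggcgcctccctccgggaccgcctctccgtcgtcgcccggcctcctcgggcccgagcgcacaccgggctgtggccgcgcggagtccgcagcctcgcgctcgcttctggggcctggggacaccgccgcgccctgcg
Gclm was at 9.44 to 10.1 in PEPs rats (median 9.60), against 9.33 to 10.1 in air rats (median 10.02), a difference of -0.22 ± 0.12. The aryl hydrocarbon receptor responds to polycyclic aromatics and acts through the core GCGTG. Its list holds the receptor and its partners as well as targets. The list gave 10 lower and 3 higher of 13 with a median of -0.07 and none at an unadjusted p under 0.05. The core was in 63.6% of 11 windows of the list, in 37.6% of the windows of the genes tested and in 29.7% of all windows. The window of Ahr itself held no match. The standard target Cyp1a1 differed by -0.11.

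Genes of red cells and haem synthesis were lower in 19 and higher in 3 of 22, with a median of -0.23, the lowest of all lists other than the genes the study names, yet none reached an unadjusted p under 0.05. Ppox, the oxidase that forms protoporphyrin, lay between 3.81 and 4.54 with PEPs and 4.07 and 5.58 with air. The erythroid transcription factor Nfe2 lay between 10.5 and 11.1 with PEPs and 10.7 and 11.3 with air. The list mean was at 7.52 to 8.35 with PEPs and 7.74 to 8.53 with air, with most rats in the shared range. Platelet genes were higher in 20 and lower in 4 of 24 with a median of 0.15, again with none at an unadjusted p under 0.05. Gng11, a G protein subunit of platelets, ran from 4.96 to 5.90 with PEPs and from 4.91 to 5.82 with air. Sparc, a matrix protein of platelet granules, was among the 4 lower genes, from 2.66 to 3.81 with PEPs and from 2.81 to 3.77 with air. Its difference lay between -0.51 and -0.26 when single rats were left out. The platelet list mean was 7.86 to 8.52 with PEPs and 7.97 to 8.62 with air.

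T cell genes were higher in 23 and lower in 4 of 27 with a median of 0.10, and 3 were higher at an unadjusted p under 0.05. Over all genes 48.3% were higher, and 1.92% were higher at that p. Zap70, a kinase of the T cell receptor, was at 6.51 to 6.75 in PEPs rats and 5.95 to 6.604 in air rats. The adaptor Lat was at 6.599 to 7.01 with PEPs and 6.43 to 6.80 with air, and the thymocyte signalling gene Themis at 7.65 to 8.22 with PEPs and 7.32 to 8.06 with air. The list mean lay at 7.62 to 7.92 with PEPs and 7.48 to 7.87 with air. B cell genes had a median of -0.04, with Cd40 at 4.65 to 5.20 with PEPs and 4.49 to 5.45 with air. Natural killer receptors gave 16 lower and 9 higher of 25 (median -0.07) and the granzyme list 8 lower and 7 higher of 15 (median -0.02). Gzmb, granzyme B, had the largest difference of the granzyme list, at 2.31 to 3.81 in PEPs rats (median 3.49), against 2.77 to 4.90 in air rats (median 4.21), a difference of -0.74 ± 0.33. Ctsw, a cytotoxic cell cathepsin, was at 6.39 to 7.07 with PEPs and 6.35 to 6.69 with air.

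Neutrophil genes were lower in 15 and higher in 8 of 23 with a median of -0.04, and none reached an unadjusted p under 0.05. Retnlg, a resistin-like protein of neutrophils, was at 7.05 to 8.81 with PEPs (median 8.15) and 8.22 to 8.92 with air (median 8.38). Padi4, the enzyme that citrullinates histones in neutrophils, was at 3.501 to 4.36 with PEPs and 4.01 to 4.54 with air. Basophil, mast cell and eosinophil genes were lower in 16 of 22 with a median of -0.14. Ccr3, the eotaxin receptor, was at 3.97 to 5.16 with PEPs and 4.48 to 5.13 with air, a difference of -0.41 ± 0.19, and the histamine-forming Hdc at 3.57 to 5.00 with PEPs and 3.54 to 6.11 with air.

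Genes of acute inflammation gave 15 higher and 18 lower of 33, with a median of -0.03. Il6 was at 1.73 to 2.67 in PEPs rats (median 2.40), against 1.57 to 1.95 in air rats (median 1.70), a difference of 0.53 ± 0.17 (limma, unadjusted p = 0.00293, adjusted p = 0.870). All 12 rats were below a log2 value of 4 for this gene. Interferon-stimulated genes gave 11 higher and 14 lower of 25 (median -0.04), with the chemokine Cxcl10 at 2.91 to 3.37 with PEPs and 2.41 to 3.30 with air. Glucocorticoid targets (median -0.04), heat shock genes (-0.03), immediate early genes (-0.06) and MHC class II genes (-0.03) were near the all-gene median. In the cell cycle list (median -0.06) the cyclin gene Ccne1 was at 3.13 to 3.66 with PEPs and 2.68 to 3.33 with air, and Tyms, the thymidylate synthase, at 5.12 to 5.73 with PEPs and 5.38 to 6.02 with air. Ribosomal, proteasome and oxidative phosphorylation lists had medians between -0.03 and 0.02, and Cpt1a, the gatekeeper of mitochondrial fatty acid oxidation, was at 5.71 to 6.51 with PEPs and 6.09 to 6.90 with air. Olfactory receptors, genes of the nasal epithelium, gave 503 higher and 553 lower of 1056, with a median of -0.01. At an unadjusted p under 0.05 there were 36, a lower share than the 4.22% of all genes. In 650 of the 1056 neither arm had a mean above the arrays' average lower quartile of 1.45, against 2037 of all 13586 genes. Low signal limits the values of those receptors.

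**Figure D3:**
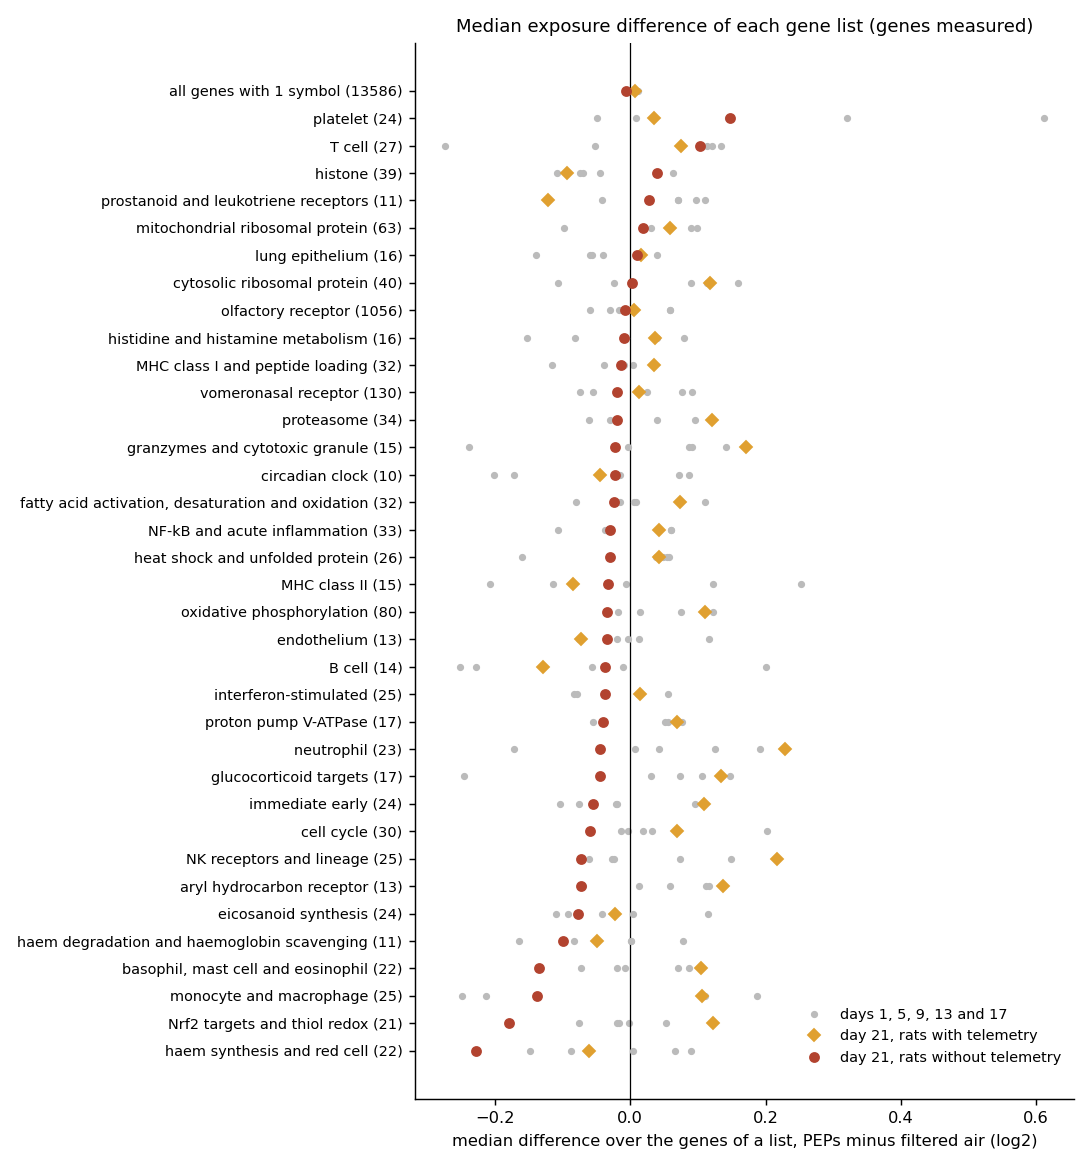
Median exposure difference (x axis, log2, PEPs minus filtered air) over the measured genes of each list other than the genes the study names, for day 21 without telemetry (red), day 21 with telemetry (gold) and the 5 earlier days (grey). The day 21 medians run from -0.23 (red cell) to 0.15 (platelet), and the gold and grey points of many lists lie on the other side of 0.

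The study had named genes for blood at day 21 from these same samples, so their counts are not independent of the data. Of 23 that could be matched, 16 were lower and 7 higher, and none passed. At 1.5-fold there were 20, the size by which the study had selected its genes, against 0.478% of all genes. At an unadjusted p under 0.05 there were 13, against 4.22% of all genes. Alox12e, Ptges3l1, Hmox1, Gzmb and Cd244l1 are among the 23 and were also counted in the lists above. Pglyrp4, Lrrc61, Npl and Rimkla, described above among the genes with the smallest p, are among the 23 as well. For several of the 23 the difference of the means rested on a few rats. Atp6ap1l, which encodes a subunit-like protein of the proton pump, had the largest difference of all genes at -1.54 ± 1.14, but 4 PEPs rats were at 7.01 to 7.72 and only replicates 1 and 5 were low, at 2.77 and 2.27, against 6.56 to 8.004 in air rats. The medians were 7.12 with PEPs and 7.32 with air, and without PEPs replicate 5 the difference was -0.71. Ldhb, a lactate dehydrogenase chain, had 3 PEPs rats at 1.72 to 2.47 and 3 at 4.75 to 5.92, against 1 air rat at 2.41 and 5 at 4.39 to 5.30. Hpgds, the haematopoietic prostaglandin D synthase, had 2 PEPs rats at 2.23 and 2.26 and 4 at 4.57 to 5.53, against 3.06 to 5.40 in air rats. Over all 69 arrays 12 had Atp6ap1l under 4, 36 Ldhb and 37 Hpgds. Clic2, a chloride channel family gene, had 2 PEPs rats at 4.73 and 5.03 and 4 at 2.15 to 3.01, against 2 air rats at 5.62 and 6.10 and 4 at 2.49 to 4.11. Atp6v1f, a proton pump subunit, had 3 PEPs rats at 8.08 to 8.72 and 3 at 6.28 to 6.67, against 1 air rat at 8.14 and 5 at 6.28 to 6.75. Apobec1, the RNA-editing cytidine deaminase, was at 4.22 to 5.26 with PEPs and 4.69 to 5.81 with air, and Gjb2, a gap junction connexin, at 3.79 to 4.597 with PEPs and 4.06 to 5.40 with air. Ceacam1, an adhesion receptor of leukocytes, was at 8.59 to 9.72 with PEPs and 7.30 to 9.68 with air.

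The 12 rats differed widely for some genes. The median range of a gene over the 12 rats, both arms together, was 0.85 on the log2 scale. Over both arms 254 genes ranged by more than 2 and 25 by more than 3. The median SD was 0.243 among PEPs rats and 0.239 among air rats. The first and second principal components of the 12 arrays held 12.1% and 10.9% of the variance, and the rats farthest out on them were both from the PEPs arm, replicate 1 and replicate 6. Leaving out any 1 of the 12 rats left no probe set passing, and the smallest adjusted p over these fits was 0.115, without replicate 3 of the PEPs arm.

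**Figure D4:**
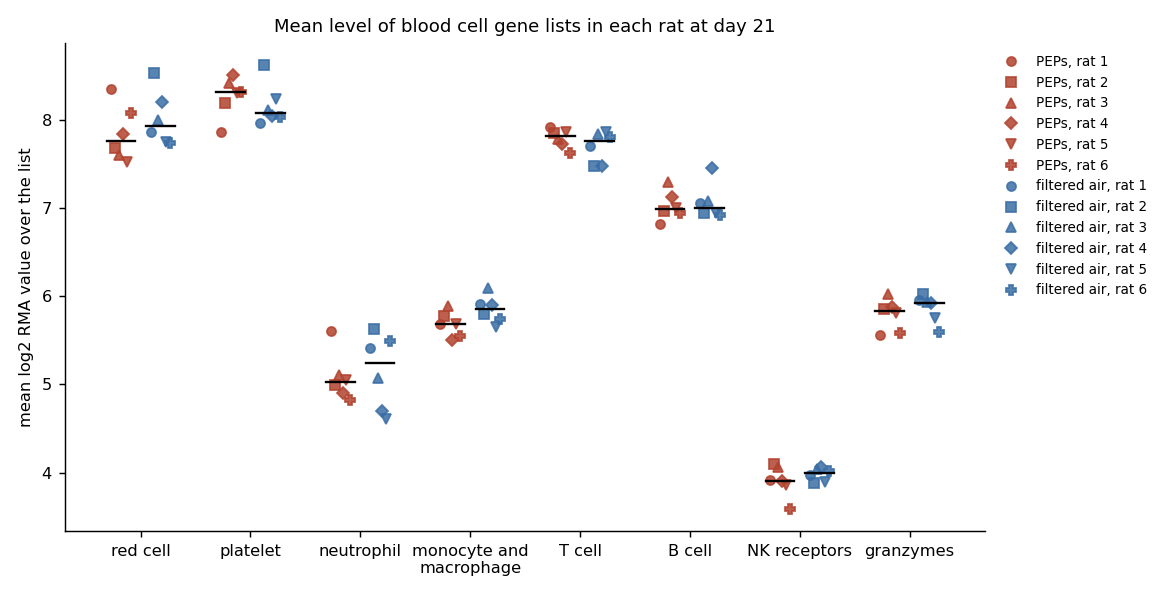
Mean log2 RMA value over 8 blood cell gene lists in each rat (points, 1 symbol per replicate number) with the median of each arm (bars), PEPs in red left of filtered air in blue. The arms overlap for every list, and PEPs replicate 1 stands above the rest of its arm for neutrophil genes at 5.60.

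Whether day 21 differed from the earlier days was tested as the day 21 difference minus the mean of the 5 earlier differences. No probe set passed (limma, smallest adjusted p = 0.256, 1768 or 5.17% at an unadjusted p under 0.05). The genes with the smallest p were Pglyrp4, Lgmn, Ylpm1, Il13 and Zhx3. For Pglyrp4 the differences on days 1, 5, 9, 13 and 17 were 0.20, -0.22, 0.22, 0.48 and 0.55, beside -0.98 on day 21, and the contrast was -1.23 ± 0.28 (adjusted p = 0.357 in limma). For Lgmn they were -0.21, 0.00, 0.10, -0.03 and 0.31, beside -0.54. Lta4h was lower on days 1 and 21 (-0.30 and -0.41) and between 0.07 and 0.38 on the days between, and Alox12e was between -0.03 and 0.59 before -0.84 on day 21. The share of genes at an unadjusted p under 0.05 was 7.39%, 5.20%, 7.85%, 8.35% and 4.52% on days 1, 5, 9, 13 and 17, beside 4.22% on day 21 and 4.91% in telemetry rats of day 21. The platelet list had medians of 0.61, 0.32, 0.14, -0.05 and 0.01 on the earlier days, beside 0.15. The monocyte list had medians of -0.14, -0.25, 0.11, -0.21 and 0.19 on the earlier days, beside -0.14 on day 21.

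Rats with transmitters gave a second set of animals at the same day, sharing no array with the first. The difference between both exposure differences passed for no probe set (limma, smallest adjusted p = 0.148, 1799 or 5.26% at an unadjusted p under 0.05). Pglyrp4 differed by 0.04 ± 0.30 in telemetry rats, Lgmn by 0.12 ± 0.15, Alox12e by -0.18 ± 0.31, Hpca by 0.32 ± 0.30 and Il6 by 0.02 ± 0.21. Gzmb differed by -0.74 ± 0.33 in rats without transmitters and by 0.81 ± 0.40 in telemetry rats, and the contrast of both was -1.55 ± 0.52 (adjusted p = 0.721 in limma). Hmox1 differed by -0.63 ± 0.25 without transmitters and by 0.30 ± 0.31 with them. The genes with the smallest p in this contrast were Adam12, a membrane metalloprotease, Prl3d1, a placental lactogen, Mrpl40, a mitochondrial ribosomal protein, Adamts12, a secreted metalloprotease, and Fen1, the flap endonuclease of DNA replication. Adam12 differed by -0.36 in rats without transmitters and 0.45 in rats with them. For Mrpl40 the values were -0.42 without and 0.52 with transmitters, and for Fen1 -0.53 without and 0.50 with them. For Prl3d1 they were 0.04 without and -0.925 with transmitters, and for Adamts12 0.20 without and -0.72 with them. The Nrf2 list had a median of 0.12 in telemetry rats, the red cell list -0.06, the monocyte list 0.11 and the T cell list 0.08.

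**Figure D5:**
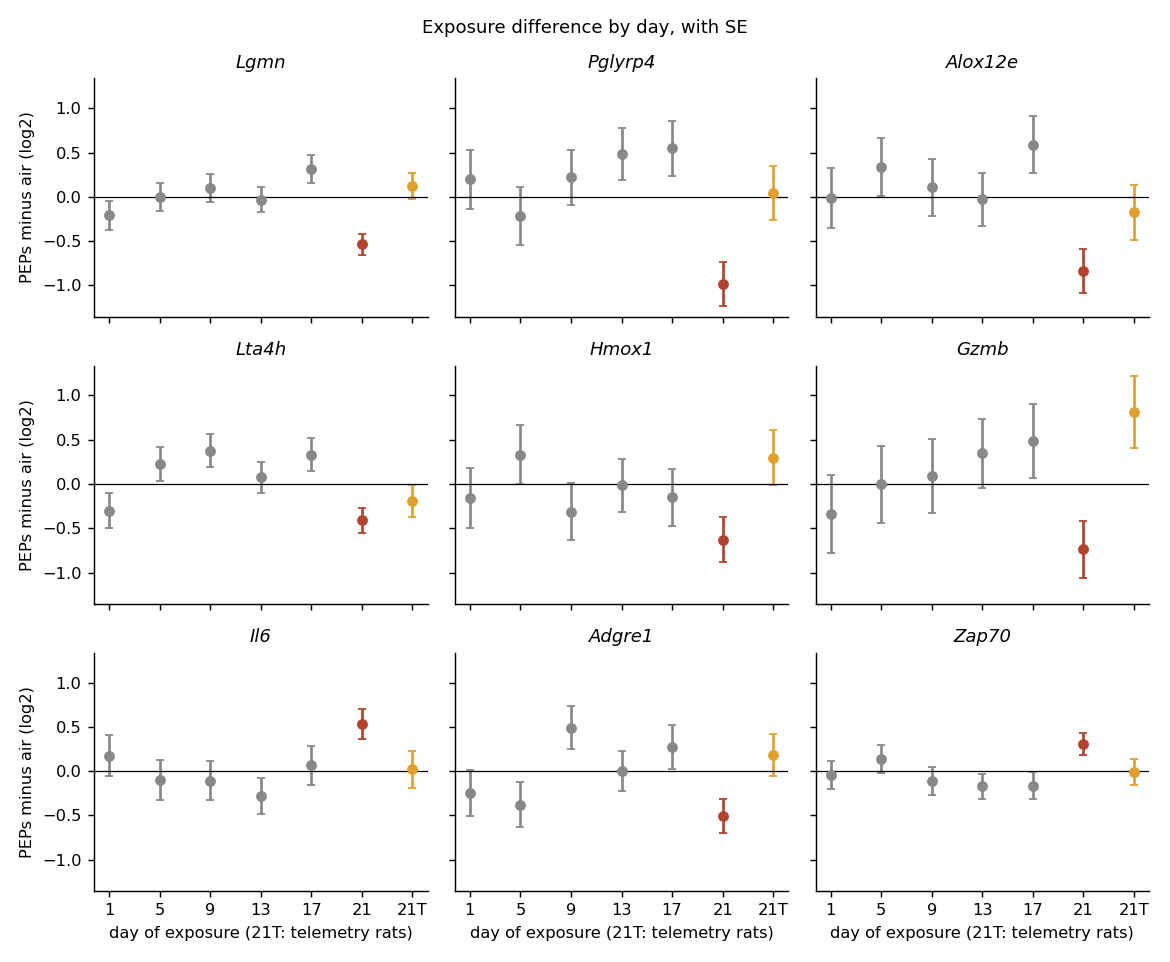
Exposure difference with SE (y axis, log2, PEPs minus filtered air) on each day for 9 genes, day 21 without telemetry in red and with telemetry (21T) in gold. Gzmb is at -0.74 in red and 0.81 in gold, and Lgmn is at -0.54 in red and 0.12 in gold.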

How the data were processed

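Whole-blood RNA was hybridised to Affymetrix Rat Gene ST 2.1 arrays. The deposited values are log2 expression that the authors made with RMA (oligo, R 3.4, per the labels), already background-corrected and normalised across arrays. The array number limits the precision and no counts exist. Of 36685 probe sets, 14824 had 1 gene symbol, 829 several and 21032 none, and 14670 of the first were matched to RefSeq by gene identifier. After the study's methods, 2509 probe sets that hardly varied (variance below 0.05) were dropped.

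All 69 arrays were fitted with 1 mean per group in limma 3.58.1 (R 4.3.3) with gene-by-gene array weights, empirical Bayes and Benjamini-Hochberg adjustment over 34176 probe sets. Differences are PEPs minus air, with the standard error of the fit. A gene with several probe sets was represented by the brightest (207 genes, of which 82 had sets of opposite sign on day 21). The model was tested on simulated data. Array measures were compared by exact permutation. Gene lists were described by counts and medians only, without a set test.

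The genes named were the 10 with the smallest unadjusted p among 1.5-fold differences in each direction, since none passed, skipping receptor genes and provisional symbols. To these were added up to 3 genes of each list by p, the genes the study names, and 5 genes from each contrast of differences. Members and lists were chosen with earlier results of these data known. The olfactory list was rewritten after the files were seen, because receptor symbols had been renamed. Alternatives were array weights, filters, normalisation by cyclic loess, moderation, covariate, samples in the fit, a replicate block and leaving out each rat.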

Additional observations from a re-analysis of the deposited data

Results flagged for a closer look

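In each arm of 6 rats, a rat was marked when its gap to the nearest other rat, divided by the range of the arm, was above the 95% critical value of Dixon's test for 6 samples. This holds by chance for about 1 group in 20, and 28 of 348 groups (8.0%) were marked. PEPs replicate 6 gave 9 of them, air replicate 2 gave 5 and PEPs replicate 1 gave 4.

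PEPs replicate 6 was lowest for Ceacam1 at 8.589 (others 9.32 to 9.722), for Nfil3, a transcription factor of the clock and of immune cells, at 3.853, for the immunoproteasome gene Psmb8 at 7.307, for Ptgir at 4.657, and for the mean of the genes the study names at 4.077 (others 4.318 to 4.438). It was highest for Adam12 at 2.493, the replication licensing gene Cdc6 at 5.536, Ptges3l1 at 3.584 and Tyms at 5.729.

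PEPs replicate 1 was highest for Lcn2, the granule protein lipocalin 2, at 5.879 (others 3.699 to 4.022), for the mean of the neutrophil genes at 5.604 (others 4.824 to 5.11), for the club cell gene Scgb1a1 at 2.512 and for the thioesterase Acot3 at 4.747. PEPs replicate 3 was highest for Ccr3 at 5.159 and Napsa at 8.305 and lowest for Hiat1 at 2.808. PEPs replicate 5 was highest for Lrrc61 at 1.922 and lowest for the mean of the heat shock genes at 5.348.

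Among air rats, replicate 2 was highest for the proton pump subunit Atp6v1f at 8.139 (others 6.281 to 6.754), Nfil3 at 4.99, Tyms at 6.023 and the mean of the heat shock genes at 5.556, and lowest for Ldhb at 2.413 (others 4.39 to 5.299). Replicate 3 was highest for the MHC class II gene RT1-Bb at 6.51 (others 3.912 to 4.265). Replicate 4 was highest for the mean of the B cell genes at 7.456, and replicate 5 lowest for Zbtb16, a glucocorticoid-induced zinc finger gene, at 2.073 (others 3.437 to 3.952). Replicate 6 was lowest for Gzmf at 1.141 and highest for the B cell gene Vpreb3 at 3.299.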

How the results depend on the processing

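No probe set passed for day 21 under any of 22 alternatives, and none passed for the contrasts with earlier days or telemetry rats under theirs. The count at 1.5-fold was 1143, and 214 with probe sets of mean under 4 left out, where fewer sets were tested. Leaving out each rat gave 1261 to 1344, with 1532 to 1842 at an unadjusted p under 0.05. Of 2885 differences of named genes under alternatives, 3 turned sign. These were Pax5 (-0.14), which ran from -0.20 to 0.00 when single rats were left out (0.001 without replicate 4 of the air arm), and Prl3d1 (0.04), which ran from -0.04 to 0.10 (-0.0064 without replicate 3 of the air arm and -0.0359 without replicate 3 of the PEPs arm). The cause was not tested. Of 36 list medians 21 turned sign under some alternative, and the Nrf2, lung, endothelium and olfactory medians moved past their spread under filters. Replicate numbers are not known to pair rats. Same-numbered deviations correlated at 0.007 to 0.085 (median 0.029), and deviations of unlike number at -0.084 to 0.072. Of 6 PEPs arrays, 3 were closest to their own number. With the replicate block 0 passed and 1148 sets were at 1.5-fold. Low signal limits the values under the arrays' lower quartile, 1.45 on average.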

Other observations

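The genes that varied most among the 12 rats included neutrophil granule genes and interferon-stimulated genes, and their levels did not separate the arms. Ngp, a granule protein of maturing neutrophils, was at 4.18 to 7.21 in PEPs rats, where replicate 1 was the highest and the next rat was at 5.17. In air rats it was at 3.28 and 3.35 in replicates 4 and 5, at 5.55 in replicate 3 and at 6.68 to 6.99 in the other 3. Mmp9, the gelatinase of neutrophil granules, was lowest in the same air rats, at 5.39 and 5.02, and highest at 7.73 in PEPs rats and 8.04 in air rats. Isg15, an interferon-induced modifier protein, was at 3.57 to 5.52 with PEPs and 3.05 to 6.04 with air, with replicates 4 and 5 again the lowest air rats. Oas1k, an interferon-induced oligoadenylate synthetase family gene, was at 4.96 to 8.08 with PEPs and 5.30 to 7.67 with air. Ly6cl1, a Ly6 family gene, was at 6.52 to 7.92 with PEPs and 6.91 to 7.46 in 5 air rats, with air replicate 1 at 1.52, and 23 of all 69 arrays had it under 4. These genes were picked for their range after the values were seen.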
